A study of Homo sapiens with 2 samples.

Results

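Of 47810 S9.6 peaks in the deposited list, 687 (1.44%) lay on unplaced and unlocalised sequences of the human assembly. They were chosen by name alone, as every peak on a sequence whose name starts with KI27 or GL000, and no measured value entered the choice. The 687 peaks fell on 78 sequences, 326 of them on 63 KI27 sequences and 361 on 15 GL000 sequences. They were obtained by CUT&Tag, in which an antibody directs a transposase to cut and tag nearby DNA, in A549, a human lung carcinoma cell line in long use. Of 2 libraries, 1 used S9.6, which recognises RNA paired with DNA, and 1 used a control IgG and was not analysed here. Both had the WT genotype, with no treatment named in the labels, and the series title concerns YTHDF1 and R-loop homeostasis. With 1 peak list there was no replicate and no test, and 95% intervals cover counting error over peaks, which are not replicates.

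R-loops form when a transcript pairs with its DNA template and displaces the other strand, and they are known at strongly transcribed, GC-rich and repetitive DNA. Unplaced and unlocalised sequences are assembled pieces of the genome that could not be put at a position on a chromosome. Such pieces are rich in sequence that is repeated elsewhere, including satellite arrays, segmental duplications and ribosomal DNA, the tandem repeat from which RNA polymerase I makes the 45S precursor of the 18S and 28S ribosomal RNAs and of the short RNA encoded by the RNA5-8S genes. A short read from such a repeat matches several places, and the sources used here do not say how reads with several matches were assigned. The number of genomic copies behind 1 reference copy is not known from the list either, so coverage per copy and number of copies cannot be told apart.

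The highest and broadest of the 687 peaks lay over ribosomal DNA on GL000220.1 and KI270733.1. RefSeq gives positions for RNA45SN5, with no chromosome, and for RNA45SN4, under chromosome 22, without naming the sequence that holds them. Their placement on GL000220.1 and KI270733.1 is general knowledge of the assembly, and it was checked against peak positions below. Sequence of these 2 pieces was not used here. As short examples of annotated sequence from such a unit, 2 microRNA hairpins are given from the related unit of RNA45SN1 on chromosome 21 (RefSeq, GRCh38.p14, plus strand). At 92 and 51 bp, they do not stand for the base composition of the peaks, which was not determined. MIR6724-4 lies at chr21:8432530-8432621, 692 bp before the 45S start. MIR10396B lies at chr21:8436324-8436374, 3102 bp after that start and inside the precursor. In the mature forms, capitals mark the seed, bases 2 to 8. The 2 mature microRNAs have different seeds.
MIR6724-4 hairpin: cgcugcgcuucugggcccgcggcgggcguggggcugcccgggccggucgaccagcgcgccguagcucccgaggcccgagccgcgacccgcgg
hsa-miR-6724-5p: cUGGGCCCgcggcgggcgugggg
MIR10396B hairpin: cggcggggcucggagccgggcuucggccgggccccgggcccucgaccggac
hsa-miR-10396b-5p: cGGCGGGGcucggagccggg
G and C made up 83.7% of the MIR6724-4 hairpin and 86.3% of the MIR10396B hairpin. At the distance of MIR6724-4 from the 45S start, GL000220.1 had a peak of mean coverage 20.7 and KI270733.1 one of 30.3, against 29.6 at MIR6724-4 itself on chromosome 21. At the distance of MIR10396B, the peaks on GL000220.1 and KI270733.1 had mean coverages of 31.4 and 30.3, against 5.24 for the narrow peak over MIR10396B on chromosome 21. These are averages over whole peaks of unlike width, 2901 and 5609 bp against 191 bp, and do not compare coverage at the hairpin itself. On KI270733.1 the hairpin would start at 125375, close to the peak end at 125419.

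Each peak in the list has a width, a total signal (coverage summed over its bases) and a maximum coverage, all whole numbers. Mean coverage, total signal divided by width, was computed from them. Coverage in the list was shallow, and no peak had a total signal under 745, so weaker sites on any sequence are not described. Comparison peaks were the 44994 on chromosomes 1 to 22 and the 1313 on 223 patch and alternate sequences, which are extra copies of chromosomal sequence. A single mitochondrial peak held 57.4% of the total signal of the list.

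Peaks on unplaced and unlocalised sequences were higher than autosomal peaks, most of all in the upper tail. Their median maximum coverage was 3 (95% interval 3 to 4), against 2 (2 to 2) on autosomes and 2 on patch and alternate sequences. The quartiles were 2 and 6 for the 687 peaks, against 2 and 3 on autosomes, so the groups were alike at the lower quartile. A maximum of 3 or more was reached by 505 of the 687 (73.5%), against 45.6% of autosomal peaks and 44.3% of patch and alternate peaks. A maximum of 5 or more was reached by 235 (34.2%, 95% interval 30.8 to 37.8), against 9.54% of autosomal peaks and 9.82% of patch and alternate peaks. At 10 or more the count was 107 (15.6%), against 1.39% on autosomes. At 20 or more it was 63 (9.17%, 95% interval 7.23 to 11.6), against 0.304% on autosomes, and at 50 or more 30 (4.37%), against 0.109%. Without GL000220.1 and KI270733.1, 32.5% of the remaining 650 peaks reached 5, 6.92% reached 20 and 2.00% reached 50.

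**Figure D1:**
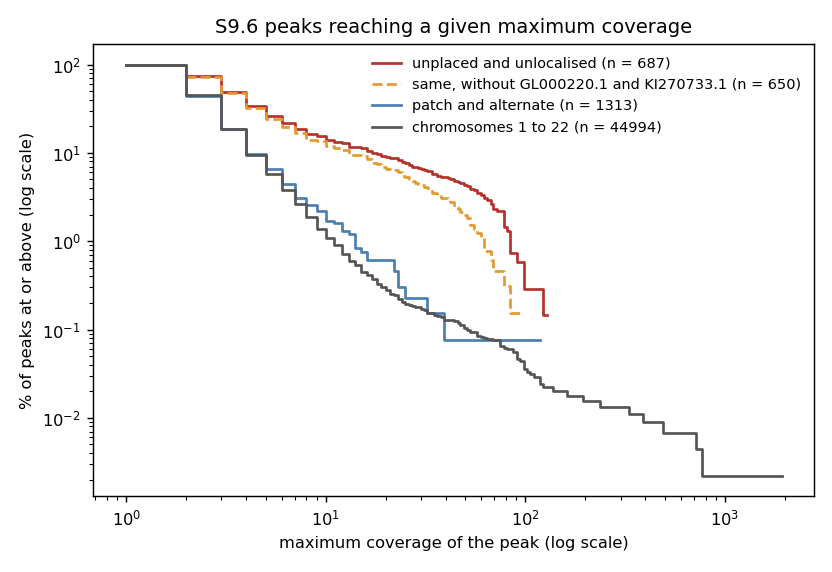
Share of peaks (%, log scale) whose maximum coverage is at or above the value on the horizontal axis (log scale), for 687 peaks on unplaced and unlocalised sequences, the same without GL000220.1 and KI270733.1, patch and alternate peaks, and autosomal peaks. At a maximum of 20 the lines stand at 9.17%, 6.92%, 0.609% and 0.304%; the highest single peaks of the list, up to 1953 on autosomes, are not on unplaced and unlocalised sequences.

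The highest maximum coverage was 128 among the 687 peaks, against 1953 on autosomes. By total signal, the 687 peaks supplied 8 of the 20 largest peaks in the list, against 11 from autosomes, and 38 of the 100 largest, against 57. They supplied 85 (17.8%) of the 478 largest, against 367 from autosomes and 13 from patch and alternate sequences. They also supplied 37 of the 100 peaks with the highest maximum coverage, a set that ends at a maximum of 40. The 11 autosomal peaks among the 20 largest include peaks in ribosomal units on chromosome 21, such as those with total signals of 987587, 736408 and 541731. Ribosomal units on chromosome 21 were not removed from the autosomal values.

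The peaks were also wider. Median width was 786 bp (756 to 827), against 686 bp (684 to 688) on autosomes and 672 bp on patch and alternate sequences. A width of 1500 bp or more was found for 121 peaks (17.6%), against 2.52% on autosomes, and of 3000 bp or more for 37 (5.39%), against 0.193%. Median total signal was 1413 (1301 to 1500), against 987 (983 to 991) on autosomes and 979 on patch and alternate sequences. At the 90th percentile, total signal was 9847, against 1934 on autosomes. Median mean coverage was 1.83 (1.78 to 1.93), against 1.51 on autosomes. Signal per base of peak was thus higher too. The stretch over which a peak held its maximum was shorter, with a median of 93 bp (76 to 118), against 168 bp (165 to 170) on autosomes.

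Within each of 4 classes of width, a larger share of the peaks reached a maximum of 5 than on autosomes. In the narrowest class the median maximum was 3 in both groups, with upper quartiles of 4 against 3 on autosomes, so the typical peak there was not higher. Under 600 bp, 18% of 150 peaks (95% interval 12.7 to 24.9) reached a maximum of 5, against 6.78% of 12765 autosomal peaks. From 600 to 999 bp it was 18.3% of 306 peaks, against 6.01% of 26477. From 1000 to 1999 bp it was 51.6% of 159 peaks (43.9 to 59.2), against 28.6% of 5393. At 2000 bp or more it was 97.2% of 72 peaks (90.4 to 99.2), against 81.1% of 359 (76.7 to 84.8), and the median maximum was 30.5, against 8. Without the 14 widest-class peaks on GL000220.1 and KI270733.1, the other 58 had a median maximum of 19. The widest class has no upper bound, and widths within it were not alike. In it, 37 of the 72 peaks were 3000 bp or wider, against 87 of 359 on autosomes.

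**Figure D2:**
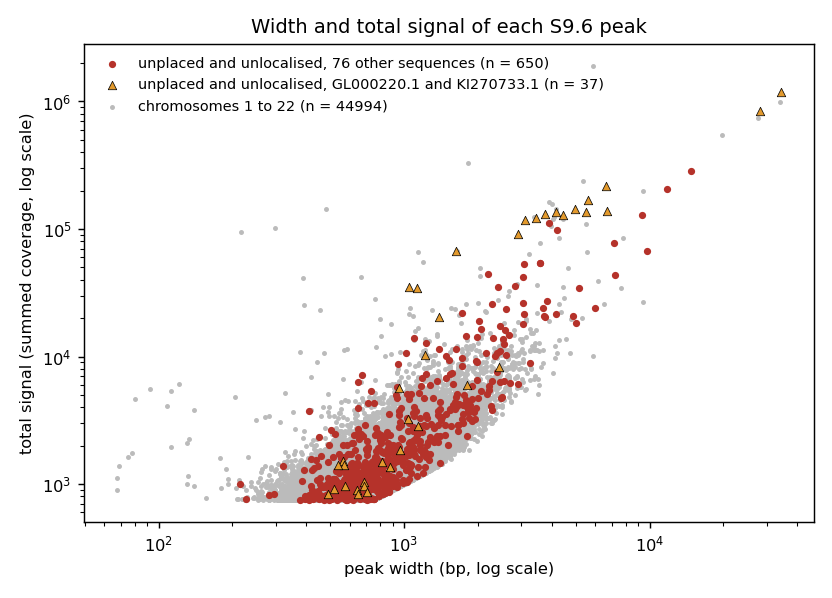
Total signal (summed coverage, log scale) against width (bp, log scale) of each peak: red circles, 650 peaks on 76 unplaced and unlocalised sequences; orange triangles, 37 peaks on GL000220.1 and KI270733.1; grey dots, 44994 autosomal peaks. Most red circles lie within the grey cloud, while at 2000 bp and wider they reach a median total of 21588 together with the triangles, against 6813 for the grey dots.

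In all, the 687 peaks covered 852 kb and summed to a total signal of 6874814, a mean coverage of 8.07 per covered base, against 1.91 on autosomes and 1.86 on patch and alternate sequences. Without GL000220.1 and KI270733.1 it was 4.35. The peaks held 3.91% of the total signal of the list, or 9.17% once the mitochondrial peak was set aside, against 1.44% of the peaks and 2.34% of the covered width. Signal was concentrated in few of them, with 50.2% of it in the 10 highest of the 687 by total signal. The 10 highest of the 44994 autosomal peaks held 8.31% of autosomal signal. Since 10 peaks are a far smaller part of that group, the 2 shares do not compare concentration on equal terms.

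Peaks on the same sequence lay close together. The median distance to the next peak was 1686 bp (1474 to 2117, 609 distances), against 16076 bp on autosomes and 17949 bp on patch and alternate sequences. It was under 1000 bp in 227 cases (37.3%), against 9.37% on autosomes. These distances do not allow for the short length of unplaced sequences, where long gaps cannot occur, and sequence lengths were not used here.

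The sequences differed widely among themselves. They carried a median of 4.5 peaks, 22 had a single peak, and 21 with at least 10 peaks held 510 of the 687. On 32 sequences, with 80 peaks in all, no peak reached a maximum of 5. On 46 the highest peak reached 5 or more, on 16 it reached 20, and on 9 it reached 50. GL000220.1 and KI270733.1 held 54.7% of the summed signal in 37 peaks, the 4 sequences with most signal held 69.8%, and the 8 with most signal held 83.3% with 33.6% of the peaks. The 13 sequences among the first 8 by peak number or by summed signal are described one by one. They held 394 peaks (57.4%) and 89.0% of the signal. The other 65 sequences had 293 peaks with a median maximum of 3 and a highest of 62, and 69 of these peaks (23.5%) reached 5.

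**Figure D3:**
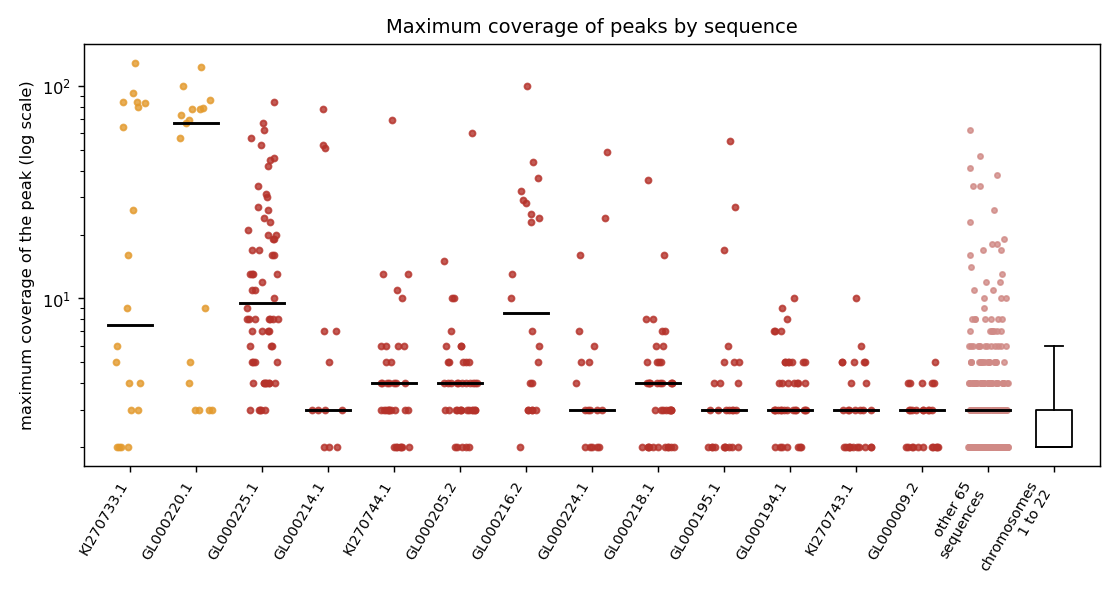
Maximum coverage of each peak (log scale) on the 13 sequences with most peaks or most signal, on the other 65 sequences pooled, and on autosomes; points are peaks, black lines medians, and the box gives the autosomal quartiles with whiskers at the 5th and 95th percentiles. Medians lie at 3 or 4 on 9 of the 13, while GL000220.1 (67), GL000225.1 (9.5), GL000216.2 (8.5) and KI270733.1 (7.5) are higher.

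KI270733.1 had the largest summed signal, 2027854 over 20 peaks, or 29.5% of the signal of all 687. Its peaks had a median width of 1045 bp and a median maximum of 7.5, and 12 reached 5. The widest peak of the 687 lay there at 140475 to 174865, with a width of 34391 bp, a total signal of 1177529, a mean coverage of 34.2 and a maximum of 128. Further peaks there also belonged to the highest of the 687. Those at 133735 to 140371 (total signal 218000) and at 119811 to 125419 (170101) reached maxima of 84 and 93, and the one at 125579 to 129731 (136449) reached 80. The peaks at 129842 to 133594 and 174974 to 178427 reached 83 and 84. An unbroken run of 8 peaks of maximum 10 or more, at 118390 to 179772, held 98.4% of the signal of the sequence, and the other 12 peaks had a median maximum of 3.5.

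GL000220.1 came next, with 1732956 over 17 peaks, or 25.2% of the signal. Its median peak was 1634 bp wide with a maximum of 67, the highest median of the 13 sequences. The largest peak, at 118583 to 146635, was 28053 bp wide with a total signal of 839419 and a maximum of 123. The highest mean coverage of all 687 peaks, 41.0, was that of a peak of 1634 bp at 116784 to 118417, with a maximum of 100. The peaks at 111411 to 116357, 101624 to 108313 and 146783 to 152282 reached 78, 73 and 86. A run of 9 peaks at 101624 to 161789, with maxima of 67 to 123, held 97.9% of the signal, and the other 8 had a median maximum of 3.5. On both sequences the signal was thus confined almost wholly to 1 block.

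The blocks overlapped the ribosomal RNA units and ran on past them. RNA45SN5 spans 105424 to 118780 and RNA45SN4 spans 122273 to 135645. Before the block, meaning more than 8 kb ahead of the 45S start, GL000220.1 had 7 peaks with a median maximum of 3, a highest of 57 and a mean coverage of 5.37 over 5.17 kb. From there on it had 10 peaks with a median maximum of 78 and a mean coverage of 28 over 60.9 kb. KI270733.1 had 10 peaks before its block with a median maximum of 3.5, a highest of 26 and a mean coverage of 3.01. From there on it had 10 with a median maximum of 81.5 and a mean coverage of 32.0.

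The placement was compared with the positions of highest coverage within peaks. In the chromosome 21 unit of RNA45SN1, the 4 main summits lay 949, 5187, 10499 and 12430 bp after the 45S start. On GL000220.1 the nearest summits lay at 931, 5210, 10568 and 12431 bp, with maxima of 73, 79, 78 and 100, against 77, 77, 95 and 99 in RNA45SN1. On KI270733.1 they lay at 957, 5188, 10503 and 12466 bp, with maxima of 93, 80, 83 and 84. All 4 summits were within 100 bp on each of the 2 sequences. The RNA45SN5 coordinates were also tried on the 28 other sequences with peaks that far along, of which 3 matched 1 summit and 25 matched none. With the RNA45SN4 coordinates, 1 of 26 matched 1 summit and 25 matched none. A unit need not share these listed positions, since RNA45SN2 and RNA45SN3 on chromosome 21 each matched RNA45SN1 at 1 of the 4 summits. The list gives 1 maximum per peak, so an unmatched summit does not show that coverage was low there. In RNA45SN2 the nearest summit for both 10499 and 12430 bp was at 12394 bp, in 1 peak from 8541 to 42406 bp after the start.

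**Figure D4:**
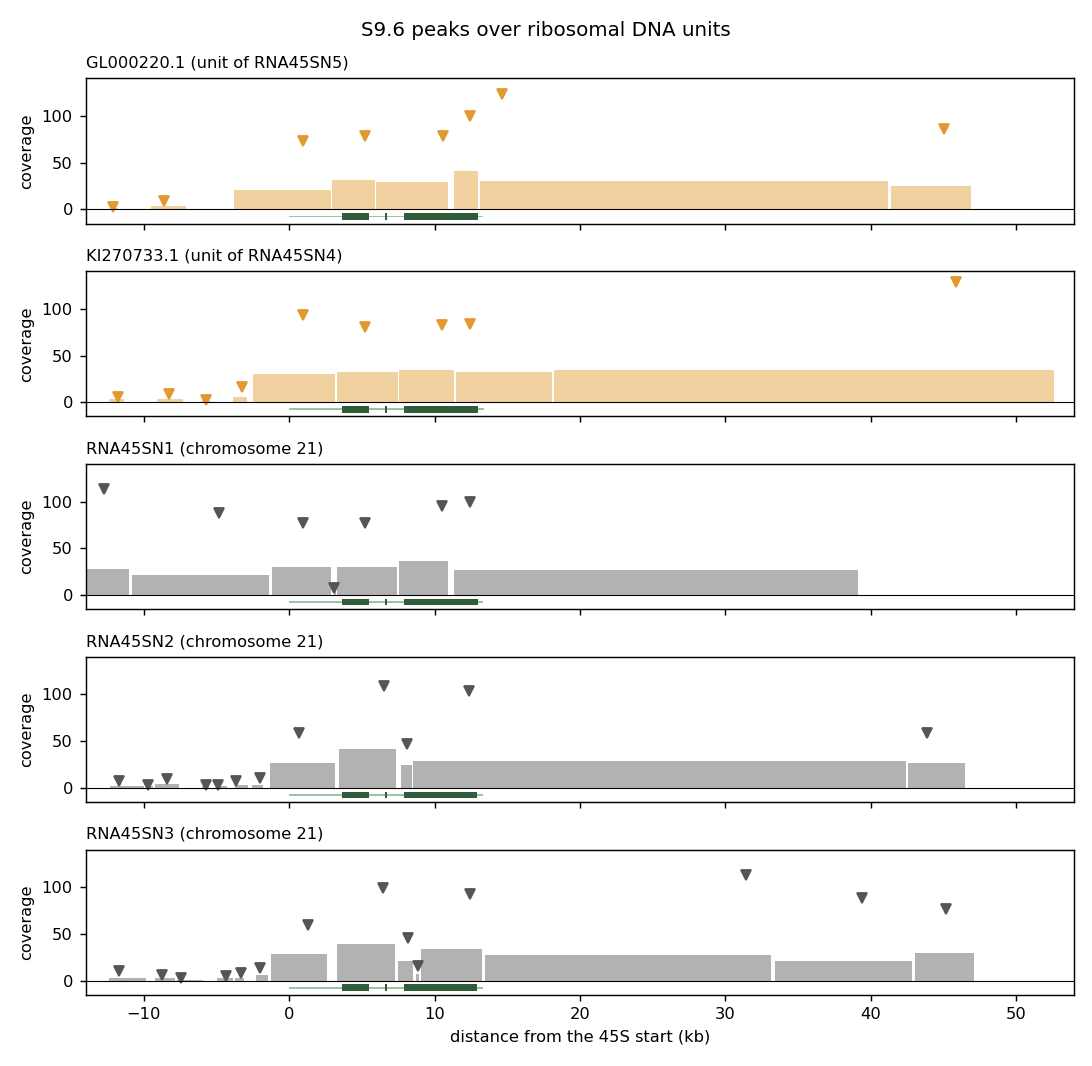
Peaks around the 45S start (distance in kb; blocks, mean coverage of each peak; triangles, its maximum coverage at the position of that maximum) on GL000220.1 and KI270733.1 in orange and in 3 chromosome 21 units in grey; the green line below is the 45S precursor and the dark boxes the 18S, RNA5-8S and 28S genes. Blocks run on past the 45S end in all 5 units, with mean coverages over the next 25000 bp of 29.9 and 34.0 on the orange rows, against 26.5, 29.2 and 26.2 on the grey rows; the long block left of RNA45SN1 belongs to the unit of RNA45SN3, its neighbour.

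Coverage over the ribosomal units was similar between these sequences and chromosome 21. Peaks covered 94.1% of the 13357 bp of RNA45SN5 and 96.9% of the 13373 bp of RNA45SN4, against 93.7%, 94.6% and 90.6% of RNA45SN1, RNA45SN2 and RNA45SN3. Mean peak coverage over the precursor was 29.3 on GL000220.1 and 32.8 on KI270733.1, against 30.9, 32.3 and 33.1 on chromosome 21. Over the 25000 bp after the precursor, the spacer between units, it was 29.9 and 34.0, against 26.5, 29.2 and 26.2. The 18S gene, which encodes the RNA of the small ribosomal subunit, lay inside a single peak in each unit, with mean coverages of 31.4 at RNA18SN5 and 32.9 at RNA18SN4, against 30.6, 42.0 and 39.4. The 28S gene, for the main RNA of the large subunit, was covered over 91.6% at RNA28SN5 and 97.2% at RNA28SN4, against 91.3%, 98.4% and 92.8%. The short genes between them, RNA5-8SN5 and RNA5-8SN4, were covered in full. A peak that spans gene and spacer gives both the same mean coverage, so these averages do not resolve the boundary between them.

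A second copy of the 18S sequence, annotated as a pseudogene, lay in the same block on each sequence. RNA18SP3 on GL000220.1, at 153050 to 154918, lay in full in a peak of mean coverage 29.1, against 31.4 for RNA18SN5, which starts 43972 bp before it. RNA18SP4 on KI270733.1, at 171012 to 172880, lay in full in a peak of mean coverage 34.2, against 32.9 for RNA18SN4, which starts 45081 bp before it. The pseudogenes RNA5-8SP8 and RNA5-8SP9 were also covered in full. Copies of a gene can share reads, so these values are not independent of each other.

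GL000225.1 had the most peaks, 64, and differed from the ribosomal sequences in that its signal was spread over many peaks. Peaks took up 75.3% of the bases up to the last peak end, the highest share of the 13 sequences, and the median distance between neighbours was 322 bp. Of its peaks 51 (79.7%) reached a maximum of 5, and the median maximum was 9.5. The largest, at 61238 to 68423, had a total signal of 77419 and a maximum of 84, and held 11.9% of the signal of the sequence. The summed signal was 649809, or 9.45% of that of the 687 peaks, at a mean coverage of 5.99.

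GL000216.2 also had high values in many peaks, 14 of 22 (63.6%) reaching 5. On KI270729.1, outside the 13 and named after its values were seen, 8 of 10 peaks (80.0%) did, with a median maximum of 6 and a highest of 38. On GL000216.2 a run of 10 peaks at 141758 to 172096, with maxima of 10 to 100, held 88.0% of the signal. The highest, at 144624 to 154342, reached 100 at 1 position but had a mean coverage of 6.87 over 9719 bp. Its profile was therefore sharper than that of the ribosomal peak of the same maximum on GL000220.1, whose mean coverage was 41.0.

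On 5 further sequences a single peak or a short run stood over many low ones. GL000214.1 had a peak at 122970 to 137693 with a width of 14724 bp, a total signal of 287440 and a maximum of 78, and a run of 3 peaks held 94.7% of its signal. Its other 10 peaks had a median maximum of 3 and a highest of 7. KI270744.1 had a peak at 114082 to 125811 with a width of 11730 bp, a total signal of 207035 and a maximum of 69, while its other 34 peaks did not exceed 13. GL000205.2 had a peak at 86231 to 90106 with a mean coverage of 28.5 and a maximum of 60, and its other 41 peaks did not exceed 15. GL000224.1 had 64.5% of its signal in a peak at 38 to 9358, which reached 49, and GL000195.1 had 50.2% in a peak at 30194 to 33276, which reached 55. Other peaks were not all low there, with maxima of up to 24 on GL000224.1 and 27 on GL000195.1. No gene was assigned to the peaks of these 5 sequences, since the RefSeq table does not name the unplaced or unlocalised sequence that holds a gene. Its 76 genes without a chromosome need not include all genes on such sequences, since RNA45SN4 is listed under chromosome 22.

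The remaining 4 of the 13 had between 26 and 42 peaks, none with a maximum above 36. GL000218.1 had 42 peaks with a highest maximum of 36, and GL000194.1 had 41 with a highest of 10. KI270743.1 had 27 with a highest of 10, and GL000009.2 had 26 with a highest of 5. Mean coverage was 2.60 on GL000218.1, 2.22 on GL000194.1, 1.87 on KI270743.1 and 1.59 on GL000009.2, against 1.91 on autosomes. A maximum of 5 was reached by 28.6%, 31.7%, 25.9% and 3.85% of their peaks in the same order, against 9.54% on autosomes. The lowest total signals of the 687 were 745 on GL000009.2 at 146887 to 147356 and 746 on GL000194.1 at 85740 to 86323 and on KI270747.1 at 7705 to 8326. The peaks on GL000194.1 and KI270747.1, like one of total signal 749 on KI270734.1 at 7692 to 8222, had a maximum of 2.

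Among the 22 sequences with a single peak, those whose peak ends within the first 5000 bp held the higher ones. These 14 peaks had maxima of 2 to 41 with a median of 11, and 8 reached 10, while the other 8 had maxima of 2 to 7. KI270337.1 reached 41, KI270467.1 reached 34 in a peak of 3061 bp, KI270466.1 reached 26 and KI270310.1 reached 19. Of the 14 peaks, 7 began within 100 bp of the sequence start. Over all sequences 13 peaks did so, with a median maximum of 16 and 11 of them reaching 5, against a median of 3 and 33.2% reaching 5 among the other 674. Whether reads at sequence ends were treated in another way was not stated.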

How the data were processed

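The deposited file is a peak list of the S9.6 CUT&Tag library of wild-type A549 cells, with names in the style of build GRCh38. Its signal columns, the total and the maximum coverage per peak, are the authors' values, deposited as whole numbers. The layout is that of SEACR. The tools in the submitters' processing notes, without roles, are SEACR 1.3, Bowtie2 2.4.2, deepTools 3.5.2, SAMtools 1.9, fastp 0.23.2 and bedtools 2.30.0. Not given in the sources used here are the calling threshold, whether IgG served as control, and how duplicates and reads with several matches were handled. Read depth is unknown.

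Peaks were grouped by sequence name: KI27 or GL000 (687), chromosomes 1 to 22 (44994) and patch or alternate names (1313). In 47810 of 47810 peaks the total did not exceed width times maximum. Medians carry 95% binomial order-statistic intervals and shares 95% Wilson intervals, for counting error only (Python 3.11.15, pandas 2.3.3, SciPy 1.17.1). The code for median intervals was checked on random draws from the autosomal widths of this list. The code that joins peaks was checked on a small made-up set, and that for Wilson intervals was not checked. Sequences described singly were the 8 with most peaks or most signal. Peaks named were the 10 highest and 3 lowest by total and by maximum, and the highest of each described sequence. Other names were chosen after values were seen. Members and lists were chosen with earlier results of these data known. Ribosomal genes came from RefSeq, GRCh38.p14. A mean coverage over a gene is that of the overlapping peaks, weighted by overlap. Planned values per sequence length, the split into unplaced and unlocalised, and base composition were not made.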

Additional observations from a re-analysis of the deposited data

How the results depend on the processing

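Of 67 values recomputed under other settings, 42 stayed within the 95% interval of the main value or, for the number of peaks, within 1.5 times of it. Another 25 moved further and none reversed. The 42 include values that could not move. These are all values of settings that changed only the comparison peaks, and the signal share after peaks were joined. In 48 of 48 recomputed medians and shares reaching a maximum of 5, the peaks on unplaced and unlocalised sequences stayed above the comparison peaks. Without GL000225.1, the sequence with most peaks, 29.5% reached a maximum of 5 and the share of list signal was 3.54%. Without KI270733.1 that share was 2.76%. With peaks of maximum 3 or more alone, median width was 877 bp, total 1936, mean coverage 2.21, the share reaching 5 46.5% and the signal share 4.42%. The 326 KI27 peaks gave a width of 748.5 bp, a total of 1189, a mean coverage of 1.73, 26.7% reaching 5 and 1.71% of the signal. The 361 GL000 peaks gave a width of 844 bp, a total of 1710, a mean coverage of 2.04, 41.0% reaching 5 and 2.19% of the signal. Joining peaks under 500 bp apart gave a median width of 833 bp and a mean coverage of 1.73. With each sequence counted once the median total was 1228. After the data were seen, 2 settings were added: without both ribosomal sequences the signal share was 1.77%, and without the mitochondrial peak 9.17%.

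No paired analysis was possible because the list holds 1 library. Unknown depth, the minimum total of 745 and unknown copy numbers limit what low peaks and levels per copy show.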

Other observations

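The ribosomal units on chromosome 21 differed among themselves in where coverage was highest. The summit nearest to 5187 bp after the 45S start, the position found in RNA45SN1, lay at 5210 bp on GL000220.1 and 5188 bp on KI270733.1, against 6493 bp in RNA45SN2 and 6483 bp in RNA45SN3. Maximum coverage there was 79 on GL000220.1 and 80 on KI270733.1, against 77 in RNA45SN1, 109 in RNA45SN2 and 99 in RNA45SN3. The fourth summit lay within 100 bp of 12430 bp after the start in all of these units. The difference was noticed in these peaks and was not tested.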
